A study of Mus musculus with 12 samples.

Results

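The genes described here are 10 of the 24421 rows in each file, chosen by symbol for their place in signaling from RANK and the M-CSF receptor to NF-κB. They are the receptors Tnfrsf11a and Csf1r, the adaptors Traf2, Traf3 and Traf6, the kinase Map3k14, and the NF-κB/Rel subunits Nfkb1, Nfkb2, Rel and Relb. Each was followed as CPM, the reads of a gene scaled to a common library total, in 12 RNA-seq libraries of mouse bone marrow macrophages (BMMs), 2 libraries in each of 6 conditions. All mice are labelled C57BL/6 and carry LysMcre(+), a Cre recombinase driven by the promoter of the lysozyme M gene, and no age is given. Bone marrow was cultured with M-CSF for 3 days in every condition before any RANKL. Per the methods, the source of M-CSF stayed in the medium afterwards, without or with RANKL. The culture time of the basal cells after these 3 days is not known here, and its part in the RANKL differences was not tested. WT (Mir182+/+LysMcre(+)) and Mir182ΔM/ΔM (Mir182flox/floxLysMcre(+)) cells were taken without RANKL (basal) or after 5 days of RANKL. Control (LysMcre(+)) and Mir182mTg (LSL-Mir182LysMcre(+)) cells were taken basal, and Mir182mTg carries a miR-182 transgene that Cre switches on, so the deletion and the transgene both depend on LysMcre. The labels do not say whether the 2 libraries of a condition came from separate mice, so p-values measure the spread between these libraries.

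RANK, encoded by Tnfrsf11a, is the receptor for RANKL, the cytokine that drives macrophage precursors to become bone-resorbing osteoclasts. RANK has no enzyme activity and recruits TRAF adaptors, among which TRAF6 carries the signal to the IKK kinases and to the canonical NF-κB dimers. TRAF2 and TRAF3 hold the NF-κB-inducing kinase NIK, encoded by Map3k14, at a low level by having it degraded; when TRAF3 is lost, NIK accumulates and p100, encoded by Nfkb2, is processed to p52, the partner of RelB. CSF1R, the receptor for M-CSF, keeps macrophages and osteoclast precursors alive.

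In GRCm38, the receptor genes are Tnfrsf11a at chr1:105780718-105847981 (plus strand) and Csf1r at chr18:61100598-61132149 (plus strand). The adaptor and kinase genes are Traf2 at chr2:25517982-25546940 (minus strand), Traf3 at chr12:111166370-111267153 (plus strand), Traf6 at chr2:101678429-101701669 (plus strand) and Map3k14 at chr11:103219762-103267472 (minus strand). The subunit genes are Nfkb1 at chr3:135584655-135691547 (minus strand), Nfkb2 at chr19:46304320-46312385 (plus strand), Rel at chr11:23736847-23770970 (minus strand) and Relb at chr7:19606217-19629438 (minus strand).

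The libraries held 24951280 to 33050619 reads on genes, and 3 reads made 0.0908 to 0.120 CPM, far below each member's lowest value. All 10 macrophage marker genes were detected in every group. The summed level of 5 B cell markers was at most 3.67 CPM, that of 6 T and NK cell markers at most 0.576 CPM and that of 6 erythroid markers at most 3.12 CPM. The summed level of 6 neutrophil markers lay between 5.59 and 113 CPM and that of 6 dendritic cell markers between 19.3 and 76.0 CPM. The 6 stromal markers summed to 1.66 to 37.5 CPM. The 10 osteoclast markers summed to 123 to 181.9 CPM in the basal libraries, 10643 to 10857 CPM in the WT RANKL libraries and 3253 to 3285 CPM in the Mir182ΔM/ΔM RANKL libraries. The Mir182 row had no read outside Mir182mTg except 1 read in a Mir182ΔM/ΔM basal library, and was 2.39 and 4.404 CPM in Mir182mTg. That row does not measure mature miR-182 and could not check the deletion.

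The 2 libraries labelled WT RANKL stood apart from the other 6 libraries of the WT and Mir182ΔM/ΔM experiment in Lyz2 and Ifi202b. Lyz2, the gene whose promoter drives the Cre, was at 4117 and 4288 CPM in them, against 22.5 to 44.0 CPM in the WT basal and Mir182ΔM/ΔM libraries. It was 5783 to 7062 CPM in the Control and Mir182mTg libraries. Ifi202b, an interferon-inducible gene, was at 1.12 and 0.972 CPM in the WT RANKL libraries, at 82.1 to 152 CPM in the WT basal and Mir182ΔM/ΔM libraries, and at 0 or 0.0908 CPM in Control and Mir182mTg. In each comparison with the libraries labelled WT RANKL, the named difference and this one cannot be told apart. Their values are therefore also set against Control basal, which lies closer to them than WT basal does in both genes.

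The mature miR-182-5p lies at chr6:30165962-30165986 on the minus strand of GRCm38, and it is shown with its seed, bases 2 to 8, in capitals because deletion or overexpression of Mir182 is the variable of the study.
mmu-miR-182-5p: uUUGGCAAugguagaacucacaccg

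The DNA letters that pair with this seed, TTGCCAA, were searched on the transcript strand of the longest annotated 3′ UTR of each gene. They were in 1 of the 10 members, Traf6, whose 3′ UTR has 4170 bases, and in 12.3% of the 10894 tested genes with an annotated 3′ UTR. The members' 3′ UTRs ranged from 336 bases (Relb) to 5418 bases (Rel), against a median of 1188 over the tested genes. The match starts at base 695 of the Traf6 3′ UTR, at chr2:101698194-101698200 on the plus strand of GRCm38, and is shown in capitals.
Traf6 3′ UTR: ggtcatgtgcTTGCCAActgctgagtg

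The κB consensus decamer was searched on both strands of RefSeq promoters of GRCm38.p6, from 250 bases before to 50 bases after a start site. Promoters were found for 7 of the 10 members, and those of Csf1r, Nfkb1 and Relb were not used here. Nfkb2, Rel and Traf3 had a match and Tnfrsf11a, Traf2, Traf6 and Map3k14 had none. Of the 11470 promoters of tested genes, 10.4% had a match. That share counts promoters, while the members are counted as genes, and Nfkb2 has 3 of the members' 9 promoters. The sites nearest the first start of Nfkb2 and those of Rel and Traf3 are shown because these are the members with a match, in capitals on the gene's own strand. Matches on both strands overlap at the first Nfkb2 site and at the Rel site, and Nfkb2 has further matches at its other starts. They lie at chr19:46304698-46304707 and chr19:46304726-46304735 (Nfkb2, plus strand), chr11:23771052-23771061 (Rel, minus strand) and chr12:111166360-111166369 (Traf3, plus strand).
Nfkb2, 39 bases before the start: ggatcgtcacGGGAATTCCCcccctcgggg
Nfkb2, 11 bases before the start: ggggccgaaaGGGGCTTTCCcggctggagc
Rel, 92 bases before the start: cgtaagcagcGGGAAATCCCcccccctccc
Traf3, 10 bases before the start: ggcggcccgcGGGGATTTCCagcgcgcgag
A match describes these letters and does not show binding of a factor.

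The first comparison asked how the pathway's transcripts stood after 5 days of RANKL in WT cells. In all, 9 members were higher and Csf1r was lower in the WT RANKL than in the WT basal libraries by limma on log2(CPM + 1) with an adjusted p under 0.05. The share of the 11691 tested genes called in this comparison was 62.5%, with 40.6% higher and 22% lower, so a call by itself sets the members little apart. In bulk RNA, fewer cells of a type and less RNA per cell cannot be told apart. The median gene also lay 0.19 higher on the log2 scale in WT RANKL, and trimmed mean (TMM) factors brought it to -0.01, so each member's difference between these 2 conditions is given with its TMM value. With TMM factors 48.4% of all calls were in the higher direction, against 64.8% without them.

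Nfkb2, which encodes p100 and p52, had the largest log2 difference of the 10. It was at 70.6 and 74.4 CPM in WT basal and 405 and 428 CPM in WT RANKL, with no overlap. The difference was 2.51 on the log2(CPM + 1) scale (SE 0.06, adjusted p = 1.99e-07), or 5.68-fold, and lay at the percentile 97.9 of all genes. With TMM factors it was 2.30.

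Relb, the usual partner of p52, was at 22.1 and 28.7 CPM in WT basal and 83.5 and 106 CPM in WT RANKL. Its log2 difference was 1.86 (SE 0.18, adjusted p = 8.43e-05), and 1.66 with TMM factors. The other subunits moved less. Nfkb1, which encodes p105 and p50, was at 159 and 155 CPM basal and 235 and 231 CPM after RANKL, a log2 difference of 0.57 (SE 0.05, adjusted p = 9.29e-05), and 0.36 with TMM factors. Rel, which encodes c-Rel, was at 20.6 and 17.9 CPM basal and 28.1 and 25.3 CPM after RANKL, a log2 difference of 0.45 (SE 0.10, adjusted p = 0.00545). With TMM factors the difference of Rel was 0.25 and was not called (adjusted p = 0.0547). With quantile normalization it was 0.21 and also not called (adjusted p = 0.130). In CPM without TMM factors the 4 subunits were higher in both RANKL libraries than in either basal library. Their folds ran from 1.37 for Rel to 5.68 for Nfkb2. The share of all genes without overlap was not computed in any comparison, so a lack of overlap by itself sets no member apart.

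Tnfrsf11a, the receptor of the added ligand, was at 92.6 and 90.0 CPM in WT basal and 281 and 268 CPM in WT RANKL, a log2 difference of 1.58 (SE 0.07, adjusted p = 2.81e-06) and 1.37 with TMM factors. Csf1r went the other way, from 2647 and 2832 CPM to 2032 and 2169 CPM, a log2 difference of -0.38 (SE 0.07, adjusted p = 0.00262). The Csf1r difference was -0.59 with TMM factors, and with quantile normalization it was -0.17 and not called (adjusted p = 0.0835). Csf1r overlaps Hmgxb3 on the opposite strand, and no strand setting of the counting is given in the sources used here, but Hmgxb3 was at most 53.1 CPM. The 10 macrophage markers, Csf1r not among them, summed to 9455 to 10094 CPM in WT basal and 8370 to 8409 CPM in WT RANKL. Without Lyz2 the other 9 summed to 9415 to 10050 CPM and 4082 to 4292 CPM, and the part of this in the Csf1r difference was not tested.

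Among the adaptors, Traf2 and Traf3, which hold NIK down, were higher with RANKL. Traf2 was at 21.5 and 26.6 CPM basal and 71.2 and 92.1 CPM after RANKL, a log2 difference of 1.72 (SE 0.18, adjusted p = 0.000143) and 1.51 with TMM factors. Traf3 was at 44.7 and 51.0 CPM basal and 131 and 145 CPM after RANKL, a log2 difference of 1.51 (SE 0.09, adjusted p = 1.06e-05) and 1.30 with TMM factors. For both genes the libraries of the 2 conditions were far apart compared with their replicates.

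Map3k14, the transcript of NIK itself, was at 28.7 and 37.0 CPM basal and 59.5 and 64.2 CPM after RANKL, a log2 difference of 0.90 (SE 0.12, adjusted p = 0.000481) and 0.70 with TMM factors. Traf6, the adaptor of the canonical arm, was at 67.2 and 61.0 CPM basal and 89.7 and 81.6 CPM after RANKL, a log2 difference of 0.41 (SE 0.09, adjusted p = 0.00681). With TMM factors the Traf6 difference was 0.21 and was not called (adjusted p = 0.0887).

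**Figure D1:**
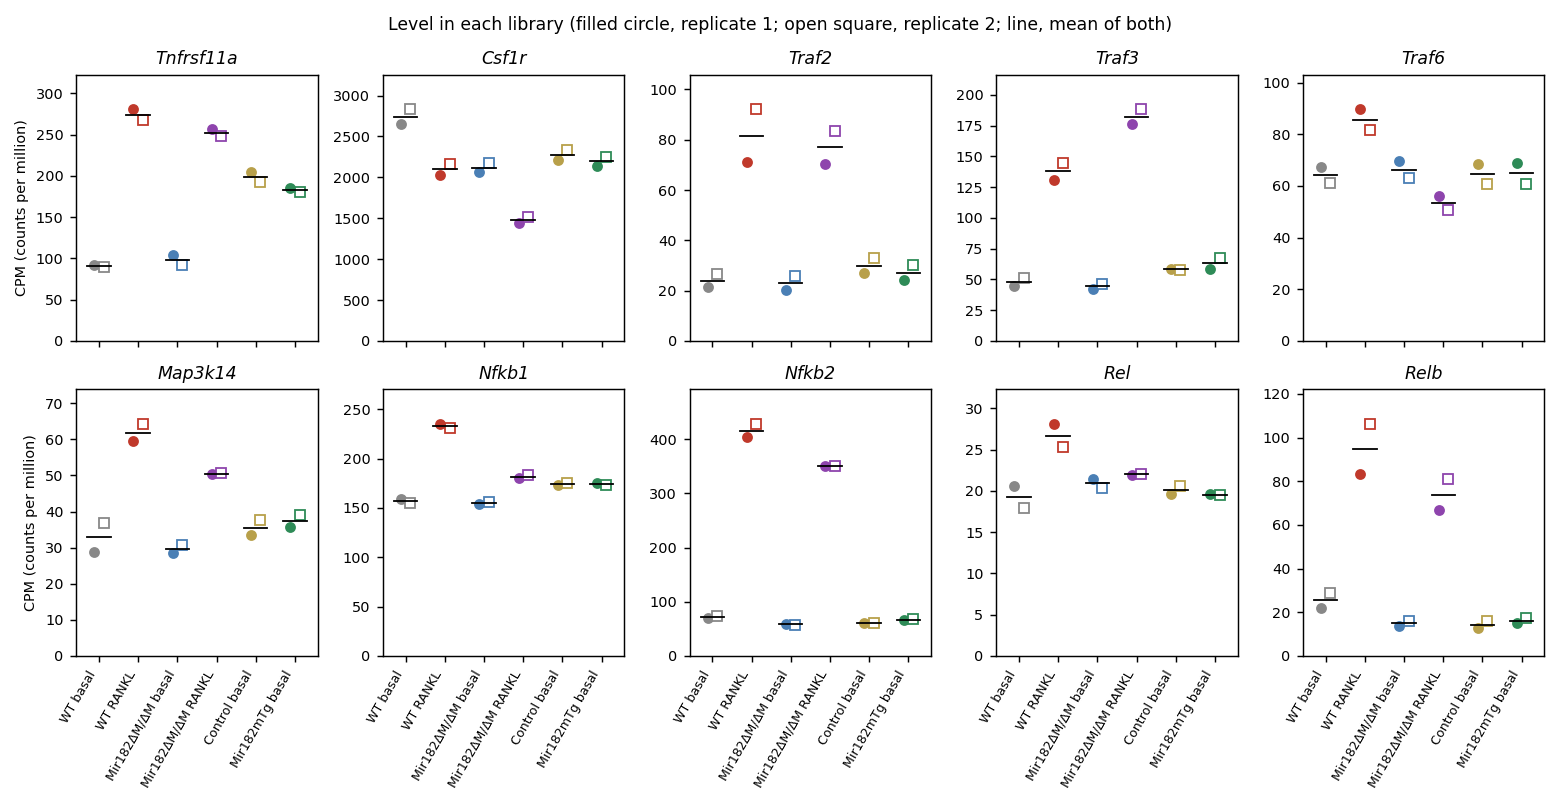
CPM of each of the 10 genes (vertical axes, each from 0) in the 12 libraries, by condition (horizontal axes), with replicate 1 as filled circles, replicate 2 as open squares and the mean of both as a line. Nfkb2 sits at 405 and 428 CPM in WT RANKL against 57.8 to 74.4 CPM in the 8 basal libraries, and Traf6 is below its basal libraries in Mir182ΔM/ΔM RANKL, at 56.1 and 50.7 CPM.

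The same WT RANKL libraries against Control basal gave 9 members higher and none lower, where 52.7% of 11794 tested genes were called, 29.6% of them higher and 23.1% lower. The 2 comparisons share the WT RANKL libraries. Nfkb2 stood 2.76 above Control basal (SE 0.05, adjusted p = 9.16e-10) and Relb 2.65 (SE 0.18, adjusted p = 1.79e-06), on the log2(CPM + 1) scale. Traf2 stood 1.41, Traf3 1.23, Map3k14 0.78, Nfkb1 0.42, Traf6 0.40 and Rel 0.39 above Control basal on the same scale. The log2 differences of these 8 genes had the same sign against either basal group, and with TMM factors those against Control were all called. Traf6 was not called against Control without replicate 1 of WT RANKL or without replicate 2 of Control, where its adjusted p reached 0.0603.

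Tnfrsf11a was the member whose difference depended most on the basal group. It was at 204 and 193 CPM in Control basal, so WT RANKL stood 0.46 above it on the log2 scale (SE 0.07, adjusted p = 0.000328), against 1.58 above WT basal. That is 1.38-fold in place of 2.98-fold. The Csf1r difference from Control basal was -0.11 (SE 0.07, adjusted p = 0.186). It was called with a replicate block (adjusted p = 0.000248, 75% of tested genes called) and with TMM factors, where it was -0.19 (adjusted p = 0.0351).

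Of the pathway's other genes, the ligand gene Tnfsf11 had 1 read in 1 of the 12 libraries, and the decoy receptor gene Tnfrsf11b was at most 0.878 CPM. Of 15 other TRAF complex genes, 8 were higher and 3 lower in WT RANKL than in WT basal. Of all tested genes 40.6% were higher and 22% lower. Traf1, an adaptor that binds TRAF2, was at 3.94 and 3.57 CPM basal and 230 and 254 CPM after RANKL, a log2 difference of 5.68 (SE 0.10, adjusted p = 7.43e-08). Birc3, which encodes the ubiquitin ligase cIAP2 of the TRAF2 and TRAF3 complex, rose from 50.8 and 49.5 CPM to 290 and 288 CPM. Of the 5 IKK complex genes, 2 were higher and 2 lower, with 1 and 3 by TMM factors.

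Of 15 tested genes on a list of NF-κB inhibitors and related genes, 11 were higher and 2 lower in WT RANKL than in WT basal. With TMM factors the counts were 10 and 2. Of all tested genes 40.6% were higher and 22% lower. The list includes Bcl3, Nfkbid, Nfkbiz and Rcan1, and whether each listed gene inhibits NF-κB in these cells was not tested. The median log2 difference of the listed genes was 0.86 against 0.19 over all genes. Nfkbia, the gene of IκBα, stood 2.07 higher (SE 0.08, adjusted p = 1.53e-06), Bcl3 2.24 higher (SE 0.24, adjusted p = 0.000151) and Nfkbie 1.88 higher (SE 0.08, adjusted p = 1.58e-06) on the log2 scale. Of 17 tested NF-κB target genes 7 were higher and 7 lower, with a median of 0.04. That list shares Traf1, Birc3, Nfkbia, Tnfaip3 and Csf1 with the other lists, and Cd83, Bcl2l1 and Tnf were lower.

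Levels of different genes can be set side by side per kilobase (RPKM). In WT basal, Csf1r was at 707 ± 33.8 RPKM and Tnfrsf11a at 18.2 ± 0.370 RPKM (SD, n = 2), and after RANKL at 542 ± 25.01 and 54.6 ± 1.80 RPKM. Rela, which encodes the p65 subunit and is no member, was not called with RANKL, at 115 and 99.5 CPM basal and 117 and 116 CPM after. Summed with the 4 member subunits, it allows a share of the family's RPKM. Nfkb2 took 18.6% ± 1.08 of the sum in WT basal and 45.3% ± 0.0627 in WT RANKL (SD, n = 2). Relb took 9.74% ± 2.002 and 15.4% ± 2.02, and Rela 33.3% ± 2.65 and 15.4% ± 0.657. The shares of Nfkb1 went from 32.1% to 20.3% and those of Rel from 6.27% to 3.71%. The ratio of Nfkb2 to Nfkb1 RPKM was 0.554 and 0.601 in the WT basal libraries and 2.16 and 2.32 in the WT RANKL libraries. These shares do not depend on the scaling between libraries.

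**Figure D2:**
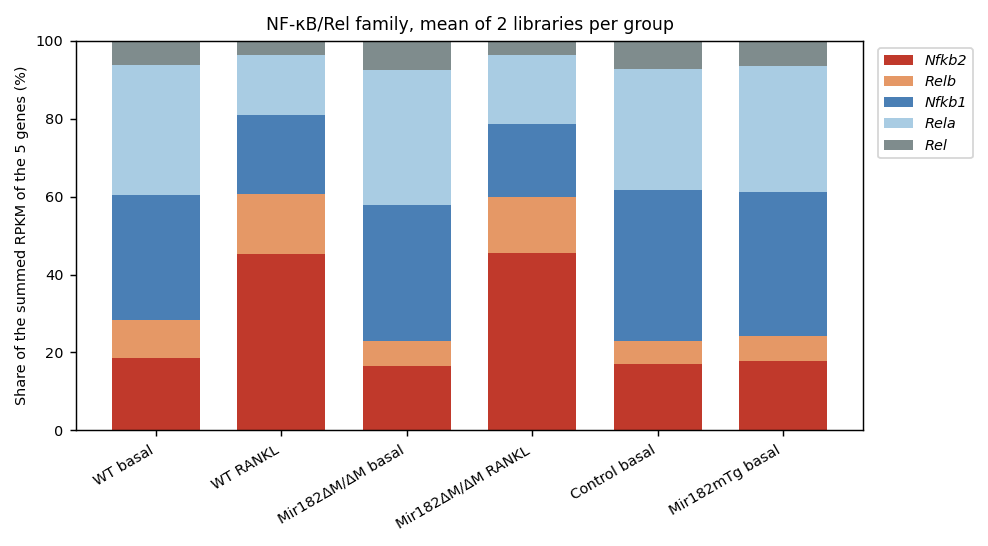
Share (vertical axis, percent) of the summed RPKM of the 5 NF-κB/Rel family genes taken by each gene, as the mean of 2 libraries in each of the 6 conditions (horizontal axis). Nfkb2 takes 45.3% in WT RANKL and 45.4% in Mir182ΔM/ΔM RANKL, against 16.5% to 18.6% in the basal groups.

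In Mir182ΔM/ΔM cells, RANKL gave 7 members higher and 2 lower than basal, and Rel was not called. The share of tested genes called was 56.8%, with 30.4% higher and 26.4% lower, and the median of all genes was 0.05, or 0.01 with TMM factors. Without both WT RANKL libraries in the fit the count was also 9. Nfkb2 was at 58.4 and 57.8 CPM basal and 350.0 and 350.1 CPM after RANKL, a log2 difference of 2.57 (SE 0.06, adjusted p = 2.40e-07). Relb was at 13.7 and 16.2 CPM basal and 66.7 and 80.9 CPM after RANKL, a log2 difference of 2.23 (SE 0.18, adjusted p = 4.06e-05). Nfkb1 was at 154 and 155 CPM basal and 180 and 183 CPM after RANKL, a log2 difference of 0.23 (SE 0.05, adjusted p = 0.00877). For these subunits both RANKL libraries lay above both basal libraries, but without replicate 1 of Mir182ΔM/ΔM basal Nfkb1 was not called (adjusted p = 0.0548). Rel was at 21.5 and 20.4 CPM basal and 22.0 and 22.1 CPM after RANKL, a log2 difference of 0.07 with a 95% interval from -0.16 to 0.30 (adjusted p = 0.560).

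The receptors again moved in opposite directions in Mir182ΔM/ΔM cells. Tnfrsf11a was at 104 and 92.2 CPM basal and 256 and 248 CPM after RANKL, a log2 difference of 1.35 (SE 0.07, adjusted p = 7.37e-06). Csf1r was at 2063 and 2176 CPM basal and 1444 and 1512 CPM after RANKL, a log2 difference of -0.52 (SE 0.07, adjusted p = 0.000680). The 10 macrophage markers summed to 8986 to 9279 CPM in Mir182ΔM/ΔM basal and 5040 to 5186 CPM in Mir182ΔM/ΔM RANKL, and the part of this in the Csf1r difference was not tested.

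Among the 3 TRAF members in Mir182ΔM/ΔM cells, Traf3 had the largest difference. It was at 42.6 and 46.3 CPM basal and 176 and 188 CPM after RANKL, a log2 difference of 2.01 (SE 0.09, adjusted p = 3.55e-06). Traf2 was at 20.1 and 25.8 CPM basal and 70.2 and 83.7 CPM after RANKL, a log2 difference of 1.71 (SE 0.18, adjusted p = 0.000179). Map3k14 was at 28.5 and 30.7 CPM basal and 50.5 and 50.6 CPM after RANKL, a log2 difference of 0.75 (SE 0.12, adjusted p = 0.00141). These 3 genes had no overlap between basal and RANKL, and the share of all genes without overlap was not computed.

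Traf6 was lower with RANKL in Mir182ΔM/ΔM cells, at 69.5 and 63.0 CPM basal and 56.1 and 50.7 CPM after RANKL. The log2 difference was -0.31 (SE 0.09, adjusted p = 0.0264). It was not called without replicate 1 of Mir182ΔM/ΔM basal or without replicate 2 of Mir182ΔM/ΔM RANKL, where the adjusted p reached 0.144. In the blocked fit the adjusted p was 8.97e-07, and Traf6 was lower in replicate 2 than in replicate 1 in each of the 6 conditions.

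**Figure D3:**
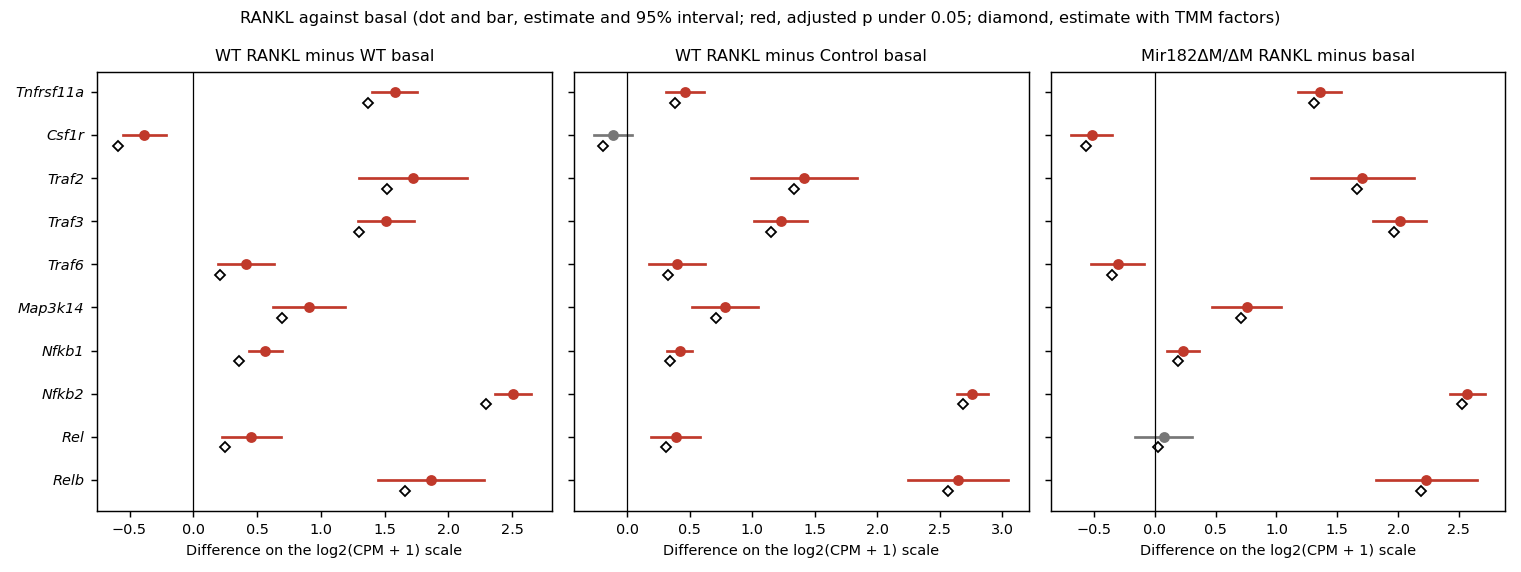
Differences after RANKL on the log2(CPM + 1) scale (horizontal axes) for the 10 genes (vertical axis), for WT RANKL against WT basal, WT RANKL against Control basal and Mir182ΔM/ΔM RANKL against basal. Dots and bars are limma estimates with 95% intervals, red where the adjusted p is under 0.05, and diamonds are estimates with TMM factors. Tnfrsf11a stands at 1.58 against WT basal and 0.46 against Control basal, and Traf6 at 0.41 in WT and -0.31 in Mir182ΔM/ΔM.

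The other genes of the pathway in Mir182ΔM/ΔM cells showed 6 of 15 TRAF complex genes higher and 2 lower in RANKL than in basal. Of the 15 genes on the inhibitor list, 12 were higher and none lower (11 and 0 with TMM factors). Of all tested genes 30.4% were higher and 26.4% lower. The genes on the inhibitor list had a median log2 difference of 0.73 against 0.05 over all genes. Traf1 stood 6.03 higher (SE 0.10, adjusted p = 1.58e-07), Birc3 2.73 higher (SE 0.06, adjusted p = 1.78e-07) and Nfkbie 2.40 higher (SE 0.08, adjusted p = 7.68e-07) on the log2 scale. Of 17 NF-κB target genes 10 were higher and 5 lower. Of 22 genes that act with the M-CSF receptor 6 were higher and 9 lower, and Src, a kinase needed by osteoclasts, went from 0.888 and 0.821 CPM to 78.8 and 79.5 CPM.

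Before RANKL, most members were not called between the genotypes. Csf1r and Nfkb2 were called lower in Mir182ΔM/ΔM basal than in WT basal, and no member was higher. The share of tested genes called was 3.81%, with 2.71% higher and 1.1% lower. Among the log2 differences of all genes, Csf1r lay at the percentile 2.4, Nfkb2 at 3.9 and Relb, which was not called, at 0.42. The other members lay between 16.9 (Map3k14) and 74.5 (Rel). Csf1r was at 2063 and 2176 CPM against 2647 and 2832 CPM, without overlap, and its log2 difference was -0.37 (SE 0.07, adjusted p = 0.0386). Nfkb2 was at 58.4 and 57.8 CPM against 70.6 and 74.4 CPM, also without overlap, and its log2 difference was -0.31 (SE 0.06, adjusted p = 0.0386). Neither call stood in any of the 8 fits that left out 1 library, where the adjusted p was at least 0.0699 for Csf1r and 0.0758 for Nfkb2. Without both WT RANKL libraries the count was also 0.

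Relb had the largest difference at baseline, at 13.7 and 16.2 CPM in Mir182ΔM/ΔM against 22.1 and 28.7 CPM in WT. Its log2 difference was -0.72 (SE 0.18), but it was not called (adjusted p = 0.0804). Relb was higher in replicate 2 than in replicate 1 in all 6 conditions, and it was called once the replicate number entered as a block (adjusted p = 1.36e-09). The block made 4 members called in all, where it called 31.2% of tested genes, with Tnfrsf11a at 0.10 (adjusted p = 0.0373) next to Csf1r, Nfkb2 and Relb. With the block and TMM factors together Traf3 was called at -0.12 (adjusted p = 0.0286) and Tnfrsf11a was not, and 31.3% of tested genes were called.

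The remaining 7 members did not pass the test at baseline without the block. Their log2 differences lay between -0.14 for Map3k14 and 0.12 for Rel, and the 95% intervals of these genes all included 0. The narrowest was that of Nfkb1, from -0.15 to 0.11, and the widest that of Traf2, from -0.49 to 0.36.

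Of the other pathway genes, Birc3 was lower in Mir182ΔM/ΔM basal (35.1 and 34.8 CPM) than in WT basal (50.8 and 49.5 CPM), a log2 difference of -0.51 (SE 0.06, adjusted p = 0.00501). Nfkbia was lower by -0.45 (SE 0.08, adjusted p = 0.0347) and Nfkbie by -0.41 (SE 0.08, adjusted p = 0.0372) on the log2 scale. In all, 3 of 15 TRAF complex genes and 2 of the 15 genes on the inhibitor list were lower, with none higher. No gene of the IKK complex was called. Of all tested genes 1.1% were lower and 2.71% higher. Of 16 interferon response genes, 15 were higher in Mir182ΔM/ΔM basal, and their summed level was 1769 to 1799 CPM against 875 to 887 CPM. Their part in the members' differences was not tested.

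After RANKL, Traf3 was higher and Csf1r, Traf6, Nfkb1 and Nfkb2 were lower in Mir182ΔM/ΔM than in WT. The share of tested genes called was 45.1%, with 14.3% higher and 30.9% lower, so a lower call was common. The median of all genes was -0.14, which TMM factors brought to -0.01, and with TMM factors 50.1% of all calls were higher, against 31.6%. This comparison rests on the libraries labelled WT RANKL, which stood apart in Lyz2 and Ifi202b.

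Traf6 had the largest of these differences, at 56.1 and 50.7 CPM in Mir182ΔM/ΔM RANKL and 89.7 and 81.6 CPM in WT RANKL. The log2 difference was -0.67 (SE 0.09, adjusted p = 0.00113) and -0.53 with TMM factors (adjusted p = 0.00332). Traf3 was at 176 and 188 CPM against 131 and 145 CPM, a log2 difference of 0.40 (SE 0.09, adjusted p = 0.0116) and 0.55 with TMM factors (adjusted p = 0.00362). The ranges of both genes were apart. Traf3 lost its call without replicate 1 of WT RANKL or without replicate 2 of Mir182ΔM/ΔM RANKL, where the adjusted p reached 0.0718.

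Csf1r was at 1444 and 1512 CPM against 2032 and 2169 CPM, a log2 difference of -0.51 (SE 0.07, adjusted p = 0.00117) and -0.36 with TMM factors (adjusted p = 0.00691). Nfkb1 was at 180 and 183 CPM against 235 and 231 CPM, a log2 difference of -0.36 (SE 0.05, adjusted p = 0.00170) and -0.21 with TMM factors (adjusted p = 0.0174). Nfkb2 was at 350.0 and 350.1 CPM against 405 and 428 CPM, a log2 difference of -0.25 (SE 0.06, adjusted p = 0.0138), and at -0.10 with TMM factors it was not called (adjusted p = 0.236). The Nfkb2 call was also lost in 3 of the 8 fits without 1 library.

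The other 5 members did not pass. The log2 differences were -0.12 for Tnfrsf11a (95% interval -0.30 to 0.06), -0.08 for Traf2 (-0.50 to 0.34), -0.29 for Map3k14 (-0.57 to -0.0039), -0.26 for Rel (-0.50 to -0.03) and -0.35 for Relb (-0.77 to 0.06), and with TMM factors Tnfrsf11a and Traf2 were at 0.03 and 0.07. A block for the replicate number made 9 members called and 73.2% of tested genes, with Tnfrsf11a (adjusted p = 0.00586), Map3k14 (0.000478), Rel (0.00188) and Relb (5.27e-06) added on the lower side. With the block and TMM factors together 6 members and 69.5% of tested genes were called, and Relb, at -0.21 (adjusted p = 0.00212), was the one added.

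The test of the difference between the responses to RANKL of the 2 genotypes called 3 members. The share of tested genes called was 24.6%, with 7.44% higher and 17.1% lower, and the median of all genes was -0.15. A call by itself thus sets the members little apart. The response of Traf3 was larger in Mir182ΔM/ΔM by 0.50 on the log2 scale (SE 0.13, adjusted p = 0.0317), and by 0.67 with TMM factors (adjusted p = 0.0133). The response of Traf6 was lower by -0.72 (SE 0.13, adjusted p = 0.00773), with opposite signs in the 2 genotypes, and by -0.56 with TMM factors (adjusted p = 0.0211). The response of Nfkb1 was lower by -0.33 (SE 0.08, adjusted p = 0.0189), and at -0.17 with TMM factors it was not called (adjusted p = 0.165). Traf6 stood in all 8 fits without 1 library, Traf3 in 2 of them and Nfkb1 in 1.

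For 7 members the responses of the 2 genotypes did not differ by this test. The interval of the difference was -0.14 to 0.27 for Nfkb2, -0.21 to 0.95 for Relb and -0.61 to 0.59 for Traf2, on the log2 scale. It was -0.47 to 0.03 for Tnfrsf11a, -0.37 to 0.10 for Csf1r, -0.55 to 0.25 for Map3k14 and -0.71 to -0.05 for Rel. With TMM factors the differences of Csf1r, Traf2 and Map3k14 changed sign, to 0.03, 0.15 and 0.01. With quantile normalization 4 members were called, and Csf1r, at -0.39 (adjusted p = 0.0339), was among them. With the block 7 members and 58.9% of tested genes were called, with Tnfrsf11a at -0.22 (adjusted p = 0.000976), Csf1r at -0.14 (0.00369), Rel at -0.38 (0.00233) and Relb at 0.37 (0.000270) added. With the block and TMM factors 5 members and 51.8% of tested genes were called, with Traf3, Relb at 0.53 (adjusted p = 9.59e-06) and Nfkb2 at 0.23 (adjusted p = 0.000751) higher and Traf6 and Nfkb1 lower.

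**Figure D4:**
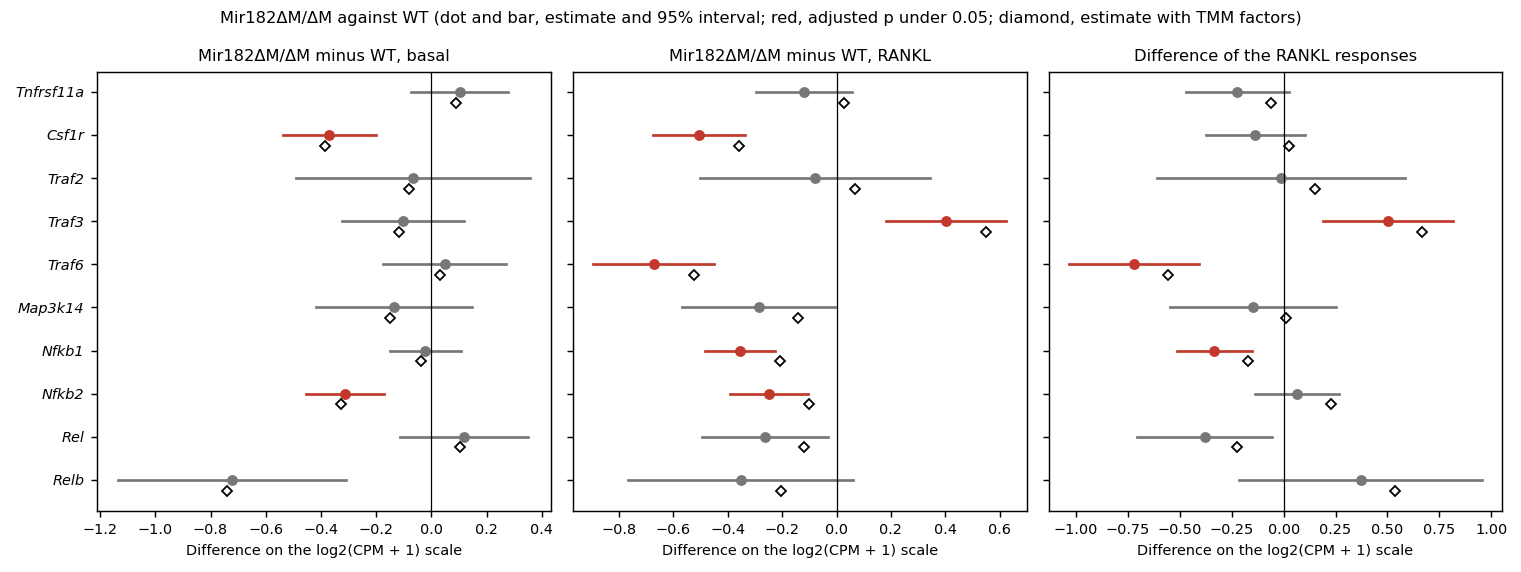
Mir182ΔM/ΔM against WT at baseline and after RANKL, and the difference between their RANKL responses, on the log2(CPM + 1) scale (horizontal axes) for the 10 genes (vertical axis). Dots and bars are limma estimates with 95% intervals, red where the adjusted p is under 0.05, and diamonds are estimates with TMM factors. Traf6 stands at -0.72 and Traf3 at 0.50 in the difference of responses, and the diamonds after RANKL lie to the right of the dots.

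Ratios within a library show the same members without regard to scaling. The ratio of Traf3 to Map3k14 RPKM, the negative regulator of NIK over NIK, was 0.907 and 0.804 in WT basal, 1.28 and 1.31 in WT RANKL, 0.872 and 0.880 in Mir182ΔM/ΔM basal and 2.04 and 2.17 in Mir182ΔM/ΔM RANKL. It was 1.02 and 0.895 in Control and 0.960 and 1.002 in Mir182mTg. The ratio of Traf6 to Traf3 RPKM was 1.74 and 1.38 in WT basal, 0.794 and 0.652 in WT RANKL, 1.89 and 1.57 in Mir182ΔM/ΔM basal and 0.368 and 0.312 in Mir182ΔM/ΔM RANKL. Both ratios were furthest from the basal libraries in Mir182ΔM/ΔM RANKL, without overlap with WT RANKL. They were chosen after values were seen, and each sets Traf3 against a gene whose log2 difference there had the opposite sign. Their separation therefore restates the members' differences and adds no support to them. The shares of the family's RPKM in Mir182ΔM/ΔM went from 16.5% ± 0.0361 to 45.4% ± 0.293 for Nfkb2 and from 6.34% ± 0.811 to 14.3% ± 1.86 for Relb (SD, n = 2).

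Other pathway genes also differed between the genotypes after RANKL. Of 15 TRAF complex genes, 8 were lower and none higher in Mir182ΔM/ΔM, and with TMM factors 2 were lower and 1 higher. Without TMM factors 30.9% of all tested genes were lower and 14.3% higher. Traf5, another TRAF adaptor, was at 7.42 and 9.92 CPM in Mir182ΔM/ΔM RANKL and 26.4 and 27.9 CPM in WT RANKL, a log2 difference of -1.55 (adjusted p = 0.000145). Birc2, which encodes the ubiquitin ligase cIAP1, was at 44.6 and 50.2 CPM against 88.8 and 92.0 CPM, a log2 difference of -0.92 (adjusted p = 0.000127). Tnfaip3, which encodes the NF-κB inhibitor A20, was at 45.3 and 48.3 CPM against 91.5 and 94.8 CPM, a log2 difference of -0.98 (adjusted p = 6.55e-05). Of the 15 genes on the inhibitor list 5 were lower and 2 higher, or 4 and 3 with TMM factors. Of 17 NF-κB target genes 6 were lower and 7 higher, or 3 and 8 with TMM factors.

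Among 22 genes acting with the M-CSF receptor, 7 were lower and 2 higher after RANKL in Mir182ΔM/ΔM, or 5 and 3 with TMM factors. Without TMM factors 30.9% of all tested genes were lower and 14.3% higher. Src was at 78.8 and 79.5 CPM against 289 and 302 CPM, a log2 difference of -1.89 (adjusted p = 1.41e-05). Adam17, a protease that sheds CSF1R, was at 567 and 584 CPM against 397 and 400.5 CPM, a log2 difference of 0.53 (adjusted p = 0.000262). Moving with this comparison, all 16 interferon response genes were higher in Mir182ΔM/ΔM RANKL, with a summed level of 5586 to 5864 CPM against 650.1 to 679 CPM. The 10 osteoclast markers were at 3253 to 3285 CPM against 10643 to 10857 CPM in sum. Among them Itgb3 was higher in Mir182ΔM/ΔM by limma (log2 difference 0.49, adjusted p = 0.00247). Calcr was not called (-0.0016), and the other osteoclast markers were lower. The neutrophil markers were at 5.59 to 5.81 CPM against 19.0 to 19.3 CPM. The 10 macrophage markers summed to 5040 to 5186 CPM against 8370 to 8409 CPM, and without Lyz2 to 5017 to 5162 CPM against 4082 to 4292 CPM. The dendritic cell markers were at 41.2 to 41.3 CPM against 71.4 to 76.0 CPM. The part of these in the members' differences was not tested.

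The second experiment asked what a miR-182 transgene does in BMMs without RANKL. No member was called between Mir182mTg and Control by edgeR, where 0.257% of 12081 tested genes were called, and 863 genes but no member had an unadjusted p under 0.05. DESeq2 and limma also called no member. Traf6, the member with the seed match, was at 68.9 and 60.8 CPM in Mir182mTg and 68.4 and 60.9 CPM in Control, so the libraries overlapped. Tnfrsf11a was at 186 and 180.5 CPM against 204 and 193 CPM, without overlap, with a log2 fold change of -0.13 (SE 0.07, adjusted p = 0.915). Nfkb2 was at 65.5 and 68.4 CPM against 60.6 and 60.6 CPM, also without overlap, with a log2 fold change of 0.13 (SE 0.08, adjusted p = 0.926). With the replicate number as a block these 2 were called along with 15.1% of tested genes, Tnfrsf11a lower (adjusted p = 0.0107) and Nfkb2 higher (adjusted p = 0.0386).

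The other members were close in both groups. Csf1r was at 2145 and 2245 CPM in Mir182mTg and 2209 and 2330 CPM in Control. Traf2 was at 24.2 and 30.04 against 26.9 and 33.03 CPM, Traf3 at 58.8 and 67.3 against 58.6 and 57.8 CPM, and Map3k14 at 35.7 and 39.2 against 33.4 and 37.6 CPM. Of these, Traf3 alone had no overlap. The share of all genes without overlap between Mir182mTg and Control was not computed, so a lack of overlap sets no member apart here. Nfkb1 was at 175 and 173 against 173 and 175 CPM, Rel at 19.6 and 19.5 against 19.6 and 20.6 CPM, and Relb at 15.1 and 17.3 against 12.7 and 15.8 CPM. The Rel libraries were apart by less than the SD of Control. The limma fit of 12 samples gave 95% intervals on the log2 scale from -0.10 to 0.10 for Nfkb1, -0.20 to 0.10 for Csf1r, -0.22 to 0.23 for Traf6, -0.22 to 0.57 for Relb and 0.02 to 0.26 for Nfkb2, whose unadjusted p in that fit was 0.0272. That fit has no block, so the difference between replicates that the conditions share is part of these widths. They do not bound what a comparison of libraries of the same number could show. The neutrophil markers summed to 102 to 113 CPM in Mir182mTg against 48.4 to 50.1 CPM in Control, and the interferon response genes to 488 to 501 CPM against 590 to 609 CPM. Their part in the members' differences was not tested.

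Control and WT basal are both Mir182-intact LysMcre(+) cells without RANKL. In all, 6 members were called between them, where 51.9% of 11794 tested genes were, 32.4% higher and 19.5% lower in Control. With TMM factors 48.9% of all calls were higher, against 62.4%, and the median of all genes moved from 0.11 to 0. Tnfrsf11a was at 204 and 193 CPM in Control and 92.6 and 90.0 CPM in WT basal, a log2 difference of 1.11 (SE 0.07, adjusted p = 1.71e-06), and 0.99 with TMM factors. Relb was at 12.7 and 15.8 CPM in Control and 22.1 and 28.7 CPM in WT, a log2 difference of -0.78 (SE 0.18, adjusted p = 0.00485). Nfkb2 was at -0.25 (SE 0.05, adjusted p = 0.00343) and Csf1r at -0.27 (SE 0.07, adjusted p = 0.00730).

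Traf3, at 0.28 (adjusted p = 0.0316), and Nfkb1, at 0.15 (adjusted p = 0.0219), were called higher in Control but not with TMM factors, where they were 0.16 and 0.02. With the block Traf2 was added, at 0.31 (adjusted p = 7.34e-06), and 74.9% of tested genes were called. Without replicate 1 of Control the count was 3, with Csf1r (adjusted p up to 0.0541), Traf3 and Nfkb1 not called. Csf1r was also lost without replicate 2 of WT basal, Traf3 without replicate 1 of WT basal or replicate 2 of Control, and Nfkb1 without replicate 2 of WT basal or of Control. The dendritic cell markers summed to 39.3 to 39.6 CPM in Control against 19.3 to 20.7 CPM in WT basal, the neutrophil markers to 48.4 to 50.1 against 79.4 to 87.1 CPM and the interferon response genes to 590 to 609 against 875 to 887 CPM. The macrophage markers summed to 10788 to 11574 CPM in Control against 9455 to 10094 CPM in WT basal, and without Lyz2 to 4959 to 5005 against 9415 to 10050 CPM. The part of these in the members' differences was not tested. The 2 groups come from different experiments, and the experiment and the labelled genotype cannot be told apart here. Control basal and Mir182ΔM/ΔM basal both lay below WT basal in Relb, Nfkb2 and Csf1r, and for Relb their libraries overlapped, at 12.7 and 15.8 against 13.7 and 16.2 CPM.

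**Figure D5:**
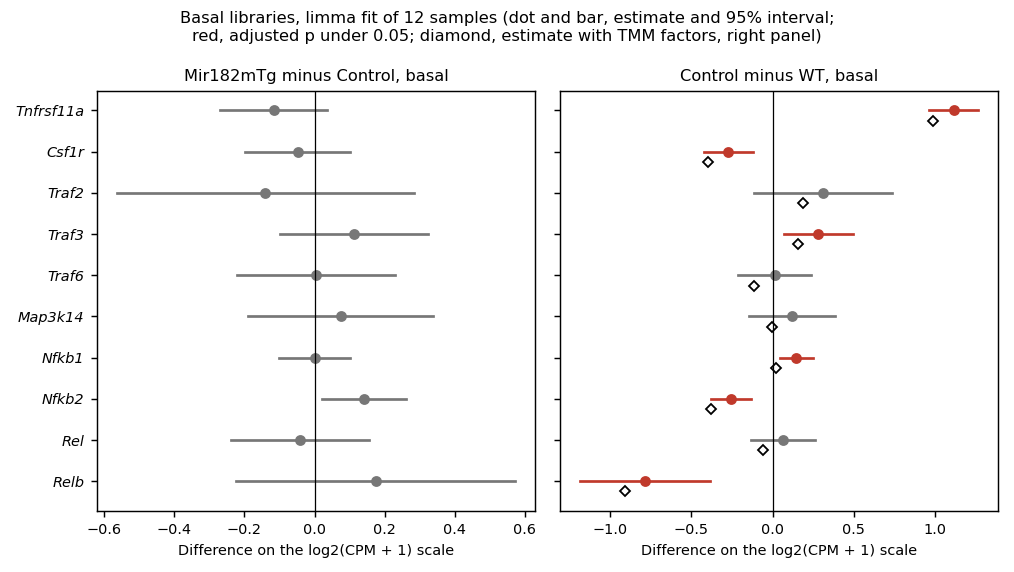
Mir182mTg against Control (left) and Control against WT (right), all basal, on the log2(CPM + 1) scale (horizontal axes) for the 10 genes (vertical axis). Dots and bars are limma estimates from 12 samples with 95% intervals, red where the adjusted p is under 0.05, and diamonds on the right are estimates with TMM factors. No gene is called on the left, and Tnfrsf11a stands at 1.11 on the right.

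Over the 6 conditions, the order of CPM levels was led by WT RANKL for 8 of the 10 genes. Csf1r was highest in WT basal and Traf3 in Mir182ΔM/ΔM RANKL. The share of all genes led by WT RANKL was not computed, and the order depends on the scaling. With TMM factors Tnfrsf11a and Traf2 stood 0.03 and 0.07 higher on the log2 scale in Mir182ΔM/ΔM RANKL than in WT RANKL. Neither difference was called. For Nfkb2 every neighbouring pair of conditions in the order was apart, from 416 CPM on average in WT RANKL to 350.1 in Mir182ΔM/ΔM RANKL, 72.5 in WT basal, 66.9 in Mir182mTg, 60.6 in Control and 58.1 in Mir182ΔM/ΔM basal. For Traf6 the 4 basal groups overlapped, with means from 64.1 to 66.3 CPM, between WT RANKL at 85.6 and Mir182ΔM/ΔM RANKL at 53.4 CPM. For Csf1r, the Control, Mir182mTg and Mir182ΔM/ΔM basal groups overlapped with their neighbours, at 2270, 2195 and 2119 CPM, as did Mir182ΔM/ΔM basal with WT RANKL at 2100.2 CPM. For Traf2, WT RANKL overlapped with Mir182ΔM/ΔM RANKL, at 81.6 and 76.9 CPM, and each basal group overlapped with the next in the order.

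The genes most like each member over the 12 libraries, by Pearson's r of log2(CPM + 1) among 9807 genes, share libraries, depth and conditions with it. They were Cdc42ep2 (r = 0.997) and Htra1 (0.995) for Nfkb2, Tcp1 (0.996) and Ipo7 (0.995) for Tnfrsf11a, 4930523C07Rik (0.996) and Adgre5 (0.994) for Nfkb1, and Slc4a7 (0.994) and Zmynd15 (0.994) for Traf3. For Traf2 they were Eif4ebp1 (0.992) and Avpi1 (0.988), for Relb Cabin1 (0.990) and Prkcd (0.989), for Traf6 Map4k4 (0.984) and Brap (0.979), and for Map3k14 Lrrk1 (0.983) and Snhg8 (0.982). For Csf1r they were Vill (0.980) and Nlrp1c-ps (0.964), and for Rel Acot2 (0.956) and Gphn (0.948).

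The 2 replicates of a condition differed in the same direction for several members. In all 6 conditions Csf1r, Traf2, Map3k14 and Relb were higher in replicate 2, and Tnfrsf11a and Traf6 were lower. This was not particular to the members. Over 9807 genes the replicate differences correlated between conditions (Pearson's r 0.773 to 0.851), and the share of genes with 1 direction throughout was not computed. On the log2 scale, replicate 2 exceeded replicate 1 by 0.25 to 0.37 for Traf2 and by 0.18 to 0.36 for Relb, while Nfkb1 ranged from -0.04 to 0.02. The labels give poly-A RNA for replicate 1 and total RNA for replicate 2, and the ribosomal precursor Rn45s was at 742 to 1176 CPM in replicate 1 and 9778 to 21273 CPM in replicate 2.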

How the data were processed

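The authors deposited CPM for the 8 WT and Mir182ΔM/ΔM libraries and the count of reads per gene for the 4 Control and Mir182mTg libraries, and for replicate 1 also RPKM, for which the methods name Cufflinks. In the 6 deposited RPKM columns the ratio of CPM to RPKM was 1 constant per gene (within 1% for 100% of 15327 genes), which was used here as its length. Per the labels, replicate 1 was processed with TopHat and Cufflinks and replicate 2 with HISAT2, HTSeq and edgeR, on mm10. Here counts were scaled to CPM. Each deposited CPM was a whole multiple of 1 read (100% of values, within 0.01 read). limma (3.58.1, trend) was fitted on log2(CPM + 1) for genes reaching 1 CPM in 2 or more samples, without a block, and edgeR (4.0.16, TMM, quasi-likelihood) on the counts. P-values were Benjamini-Hochberg adjusted over all genes tested, with a threshold of 0.05, and the edgeR SE is the fold change over the square root of F. edgeR on the recovered reads called 7215 (RANKL in WT), 6913 (RANKL in Mir182ΔM/ΔM), 408 (genotype, basal), 4929 (genotype, RANKL) and 2240 (interaction) genes. Replicate numbers come from the labels. Replicate differences correlated between all 15 pairs of conditions (Pearson's r 0.773 to 0.851 over 9807 genes), so libraries of the same number share a difference. The labelled RNA type and the pipeline change with the replicate number, so their parts cannot be told apart. In the fits without a block this shared difference is part of the spread behind each SE and p-value. Sites and positions are from GENCODE vM21 and RefSeq. All members are named in each comparison, and of other lists at most the 3 called genes with the largest change per direction with at least 5 CPM, apart from genes given as checks. The members, lists and tests were chosen with earlier results of these data known, and the κB search, the removal of both WT RANKL libraries and the ratios were chosen after values were seen. The 27 row names that differ between files stayed unnamed.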

Additional observations from a re-analysis of the deposited data

Results flagged for a closer look

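The responses to RANKL of 3 members differed between Mir182ΔM/ΔM and WT by limma's test of the interaction. That test called 24.6% of tested genes, so a call by itself sets these members little apart. The difference was 0.50 for Traf3 (adjusted p = 0.0317), -0.72 for Traf6 (adjusted p = 0.00773) and -0.33 for Nfkb1 (adjusted p = 0.0189), on the log2(CPM + 1) scale. With TMM factors Nfkb1 was at -0.17 and was not called (adjusted p = 0.165). With 1 library left out, Traf6 was called in 8 of 8 fits, Traf3 in 2 and Nfkb1 in 1. Traf6 stood higher with RANKL in both WT replicates and lower in both Mir182ΔM/ΔM replicates, when libraries of the same number are compared. These differences use the libraries labelled WT RANKL, and the part of their difference in Lyz2 and Ifi202b was not tested.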

How the results depend on the processing

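Of the members' log2 differences under the alternatives, 992 kept direction and side of the threshold, 65 lost the call, 29 gained one and 54 changed sign. Each member that changed sign was uncalled both ways. The count of members called between Mir182ΔM/ΔM and WT at baseline was 1 without the filter, 1 with quantile normalization, 4 with the replicate block, 4 with the replicate block and TMM factors, 0 without both WT RANKL libraries (chosen after seeing the data) and 0 to 0 with 1 library left out. After RANKL it was 9 with the replicate block and 3 to 6 with 1 library left out. For the interaction it was 7 with the replicate block, 5 with the block and TMM factors, 5 with edgeR and the block, and 1 to 3 with 1 library left out. For Mir182mTg against Control it was 2 with the replicate block. For Control against WT it was 3 to 5 with 1 library left out. Elsewhere the block changed the call of Csf1r in WT RANKL against Control and of Traf2 in Control against WT. The cause of these changes was not tested.

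Log2 differences after RANKL between Mir182ΔM/ΔM and WT became 0.028 for Tnfrsf11a and 0.068 for Traf2 with TMM factors, with or without the block. They were 0.033 and 0.066 in edgeR, 0.032 and 0.072 in edgeR with the block, and 0.0016 for Traf2 with quantile normalization. In the interaction, TMM factors, with or without the block, gave Csf1r 0.028, Traf2 0.15 and Map3k14 0.012. There edgeR gave 0.033, 0.15 and 0.026, edgeR with the block 0.033, 0.15 and 0.021, and quantile normalization gave Traf2 0.10. For Mir182mTg against Control, Traf6 was 0.0044 and Nfkb1 0.00066 with library sizes alone, and 0.0039 and 0.00060 in limma. For Control against WT, Traf6, Map3k14 and Rel were -0.11, -0.0028 and -0.057 with TMM factors and -0.11, -0.0046 and -0.060 in edgeR.

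With 1 library left out, the range was -0.24 to 0.10 for Traf2, -0.022 to 0.12 for Traf6 and -0.31 to 0.040 for Map3k14 between genotypes at baseline, -0.26 to 0.10 for Traf2 after RANKL, and -0.20 to 0.17 for Traf2 and -0.33 to 0.027 for Map3k14 in the interaction. It was -0.32 to 0.0039 for Traf2, -0.10 to 0.084 for Traf6, -0.021 to 0.16 for Map3k14 and -0.020 to 0.0033 for Nfkb1 in Mir182mTg against Control. In Control against WT it was -0.070 to 0.095 for Traf6, -0.057 to 0.30 for Map3k14 and -0.035 to 0.16 for Rel. Fits that leave a group with 1 library assume that it varies like the others.

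Over all genes, 446 were called between genotypes at baseline, 3651 with the block and 97 to 293 with 1 library left out. After RANKL 5275 were called and 8555 with the block, and in the interaction 2875 and 6889. For Mir182mTg against Control 31 were called, 141 without the filter, 124 with DESeq2, 232 with limma, 1822 with the block and 55 to 166 with 1 library left out. With 2 libraries a group, small differences could not be detected.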
